A study of Mus musculus with 2 samples.

Results

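Genes whose proteins pass ions, water and small molecules through the astrocyte membrane were followed: Gja1, Gjb6 and Gjb2 for the gap junction proteins Cx43, Cx30 and Cx26, Aqp4 for the main water channel of the brain, and Kcnj10 and Kcnj16 for the potassium channel subunits Kir4.1 and Kir5.1. They were taken by symbol as 6 of the 32285 genes measured, and all 6 had UMIs (unique molecular identifiers, each counted as 1 captured transcript) in both libraries. The series held 2 mouse single-cell libraries of 1 group, named replicate 1 and replicate 2, with no treatment and no untreated control. Both came from the pallium, the dorsal forebrain that includes the cerebral cortex, of wild-type mice at postnatal day 3, after cells had been dated with the DNA label EdU at embryonic day 12. Pallial tissue of several brains was pooled, and live cells within the brightest 10% of EdU label were sorted, so levels below are those of sorted cells. The labels do not say whether the libraries were separate pools of animals, so differences between them may be technical. Each p-value below measures only the spread left in the counts of these 2 libraries after the fitted terms.

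Gap junction channels couple neighbouring astrocytes into a network through which ions and small metabolites spread. Aqp4 sits in astrocyte endfeet, the processes that wrap blood vessels, held there by the dystrophin complex. Kir4.1 sets the negative resting potential of astrocytes and takes up potassium released by active neurons. It is also carried by oligodendrocyte precursor cells (OPCs), and Kir5.1 forms channels mainly by pairing with Kir4.1. In rodents Cx43 is present in radial glia before birth, whereas Cx30 appears in astrocytes in the weeks after it.

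On the GRCm38 (mm10) build, Gja1 (ENSMUSG00000050953) lies on the plus strand at chr10:56377330-56402513, Kcnj10 (ENSMUSG00000044708) on the plus strand at chr1:172341210-172374085 and Kcnj16 (ENSMUSG00000051497) on the plus strand at chr11:110968033-111027968. Gjb2 (ENSMUSG00000046352), at chr14:57098600-57104702, and Gjb6 (ENSMUSG00000040055), at chr14:57123303-57133611, are minus-strand neighbours with 18600 bases between them. All 6 are protein-coding, and none shared exon sequence with another annotated gene. The coding sequence lay in 1 exon in every annotated coding transcript of each gene but Aqp4, whose transcripts had 2 to 5 coding exons.

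The start-site windows of Gja1, Kcnj10, Gjb6 and Gjb2 are shown because Gja1 was counted mostly in astroglia, Kcnj10 in both glial gates, and Gjb6 and Gjb2 on few UMIs. Each window is the 250 bases before the start given by RefSeq on GRCm38.p6, printed 5′ to 3′ on the gene's strand, and 5 of the 6 members had such a window. Capitals mark matches, on either strand, to TGANTCA (the AP-1 motif) or GGGCGG (the GC box). In order, the windows lie at chr10:56377050-56377299 (plus strand), chr1:172340960-172341209 (plus), chr14:57133612-57133861 (minus) and chr14:57104703-57104952 (minus).
Gja1: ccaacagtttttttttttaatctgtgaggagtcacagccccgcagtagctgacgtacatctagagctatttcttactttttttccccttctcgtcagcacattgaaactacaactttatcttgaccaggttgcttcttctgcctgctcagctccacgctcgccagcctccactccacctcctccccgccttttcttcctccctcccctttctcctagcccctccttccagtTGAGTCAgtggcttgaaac
Kcnj10: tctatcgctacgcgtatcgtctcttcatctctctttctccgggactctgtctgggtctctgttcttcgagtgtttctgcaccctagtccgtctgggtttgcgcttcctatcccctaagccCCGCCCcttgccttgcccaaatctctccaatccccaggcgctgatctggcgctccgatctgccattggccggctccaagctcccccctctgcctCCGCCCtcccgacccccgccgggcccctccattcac
Gjb6: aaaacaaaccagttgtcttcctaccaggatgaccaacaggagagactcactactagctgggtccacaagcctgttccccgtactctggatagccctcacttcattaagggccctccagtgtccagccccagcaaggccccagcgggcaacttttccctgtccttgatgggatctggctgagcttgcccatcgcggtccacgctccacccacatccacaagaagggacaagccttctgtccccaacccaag
Gjb2: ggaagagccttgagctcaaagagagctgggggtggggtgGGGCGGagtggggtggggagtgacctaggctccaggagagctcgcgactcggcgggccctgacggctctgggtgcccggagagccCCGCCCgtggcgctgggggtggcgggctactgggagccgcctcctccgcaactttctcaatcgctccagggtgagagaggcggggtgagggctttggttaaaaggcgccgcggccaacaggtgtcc

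The Gja1 window held 1 AP-1 match, TGAGTCA, from 19 to 13 bases before the start. Such a match was present in 6.75% of the 32851 windows of the table. The Kcnj10 and Gjb2 windows each held 2 GC box matches, a motif found in 32.7% of all windows. No window of these 4 genes held TATAAA, found in 12.4% of all windows, or the full palindromic nuclear factor I site, found in 0.0365%. The Kcnj10 window had 17 CG dinucleotides and the Gjb2 window 18, against 6 in Gja1, 5 in Gjb6 and a median of 6 over all windows. Kcnj16 had 4 listed starts, whose windows held 1 to 7 CG dinucleotides.

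Of 13858 and 14513 barcodes, 11228 in replicate 1 and 10965 in replicate 2 had at least 500 detected genes and at most 10% mitochondrial UMIs, with medians of 7542.5 and 8523 UMIs and totals of 92268870 and 102337574. The libraries shared 40 of these barcodes. Cells were gated by marker UMIs that include none of the 6 genes: astroglia had at least 2 Slc1a3 UMIs (a glutamate transporter), OPCs at least 2 Pdgfra UMIs, neurons at least 2 Stmn2 UMIs and microglia at least 2 C1qa UMIs. Replicate 1 held 3276 astroglia, 4091 OPCs, 2055 neurons and 164 microglia, and replicate 2 held 3053, 4294, 2103 and 166. In the astroglia gate 9 of 10 fixed astroglial markers were over 2-fold above their level in all cells and none was at 0. In the microglia gate all 8 microglial markers were over 2-fold above all cells. In the OPC gate 3 of 8 OPC markers were, with none at 0. OPCs and astroglia together made up most cells, so the level in all cells is itself partly that of OPCs.

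**Figure D1:**
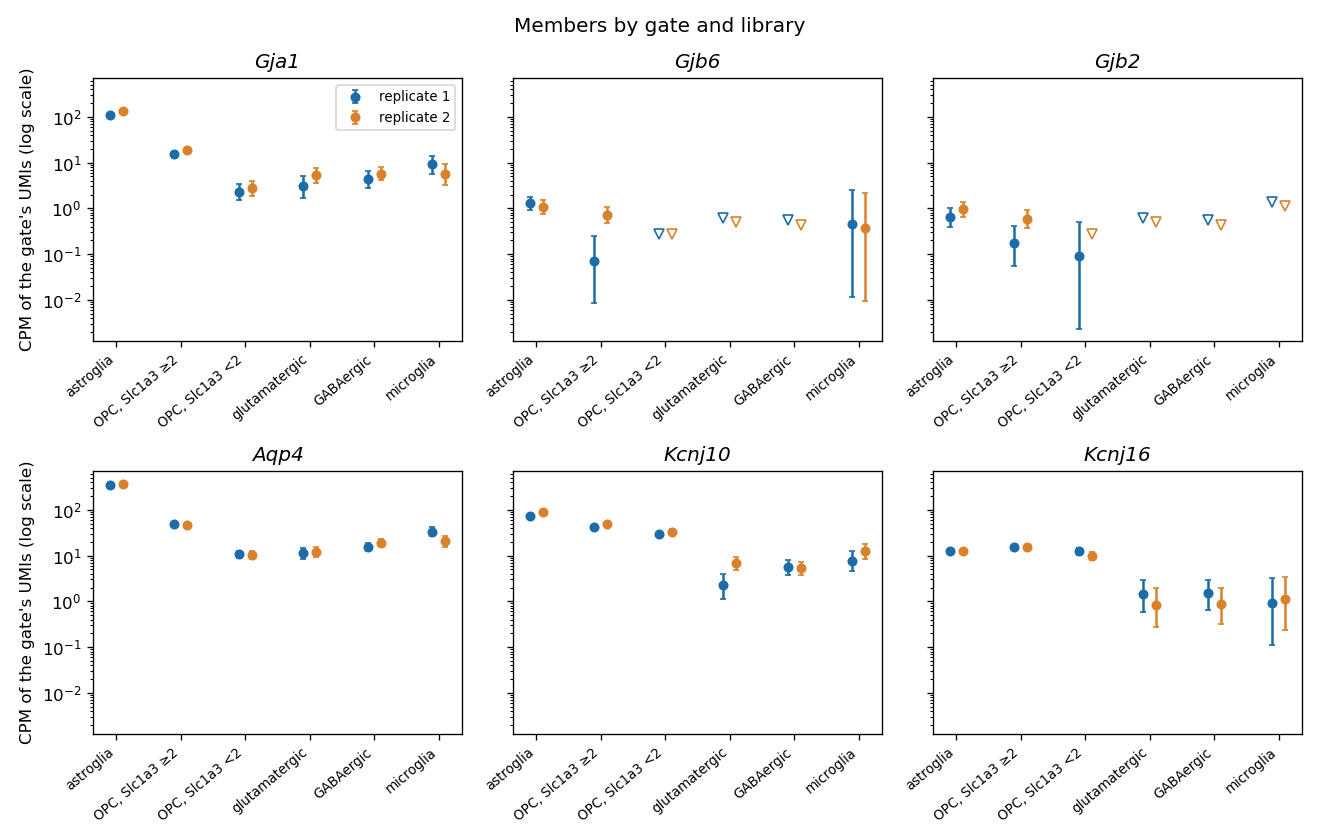
Level of each member as UMIs per 1000000 UMIs of a gate (CPM, log axis) in astroglia, OPCs with and without 2 Slc1a3 UMIs, glutamatergic and GABAergic neurons and microglia. Circles are libraries with exact 95% Poisson intervals, and open triangles mark the level that 3 counts would give where no UMI was found. In OPCs with under 2 Slc1a3 UMIs, Gja1 and Aqp4 lie under their glutamatergic and GABAergic neuron levels, with intervals overlapping those of glutamatergic neurons. Kcnj10 and Kcnj16 do not lie under theirs, and Gjb6 and Gjb2 lie near or under 1 CPM in every gate shown.

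The 6 genes divided by where their UMIs fell. Levels are given as CPM, UMIs of a gene per 1000000 UMIs of a gate. Astroglia held 83.4% and 80.2% of all Gja1 UMIs and 82.8% and 81.7% of all Aqp4 UMIs (replicates 1 and 2). OPCs held 12% and 14.3% of Gja1 UMIs and 12.6% and 13.2% of Aqp4 UMIs. For Kcnj10 the astroglial share was 53.7% and 52.6% and the OPC share 39.9% and 40.4%. For Kcnj16 the order turned over, with 36.6% and 34.2% in astroglia and 56.7% and 60.9% in OPCs. In these bulk sums of a gate, fewer expressing cells and fewer transcripts per cell cannot be told apart. UMIs of different genes also depend on how well each transcript is captured, so levels are compared within a gene, and ratios of 2 genes only between gates.

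Aqp4 (ENSMUSG00000024411), on the minus strand at chr18:15389496-15410982, was far higher in astroglia than in OPCs, microglia or neurons. Its level was 350 and 372 CPM in astroglia, 39.0 and 38.8 CPM in OPCs, 33.4 and 20.5 CPM in microglia, 15.6 and 19.1 CPM in GABAergic neurons and 11.2 and 12 CPM in glutamatergic neurons. The OPC level exceeded the microglial level in both. The microglial values spread widely (26.9 CPM ± 9.10, SD, n = 2) and rested on 73 and 54 UMIs.

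Gja1, the main astroglial connexin, had the same order of gates, with 112 and 131 CPM in astroglia. OPCs had 11.7 and 15.1 CPM, microglia 9.14 and 5.69 CPM, GABAergic neurons 4.45 and 5.74 CPM and glutamatergic neurons 3.07 and 5.24 CPM. The 3 lower gates overlapped between libraries and did not differ beyond their spread.

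Kcnj10 was spread over both glial gates. It reached 71.8 and 90.5 CPM in astroglia and 39.1 and 44.9 CPM in OPCs, and no glial library came near the other gates. Microglia had 7.77 and 12.5 CPM, GABAergic neurons 5.56 and 5.30 CPM and glutamatergic neurons 2.25 and 6.76 CPM. The 2 neuronal gates overlapped.

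Kcnj16 differed little between the glial gates, at 12.6 and 12.3 CPM in astroglia and 14.3 and 14.2 CPM in OPCs. Neurons and microglia had 0.845 to 1.48 CPM, on 2 to 8 UMIs per library, and could not be ordered among themselves.

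Levels were compared between gates with edgeR's quasi-likelihood test on the summed counts, with the library as a block and p-values adjusted over all 14435 genes tested. Gjb6 and Gjb2 were too scarce to pass the filter on low counts, so 4 of the 6 members were tested. Gja1 and Aqp4 were 9.74-fold and 10.0-fold higher in astroglia than in OPCs, on the log2 scale 3.28 ± 0.05 (SE, adjusted p = 1.83e-34) and 3.33 ± 0.04 (adjusted p = 6.11e-37). Kcnj10 was 2.09-fold higher (log2 1.06 ± 0.05, adjusted p = 6.40e-21). The difference for Kcnj16 was -0.08 on the log2 scale, with a 95% interval from -0.24 to 0.08 (adjusted p = 0.366). Of all genes, 69.9% passed the test between astroglia and OPCs, so passing it is no mark of these genes. The size of the change was less common: those of Gja1 and Aqp4 exceeded 98.4% and 98.6% of all genes' changes, that of Kcnj10 79.6% and that of Kcnj16 14.2%.

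The astroglia-to-OPC gap depended on which OPCs were counted. Scrublet, which marks likely doublets, marked 10.2% and 8.90% of the OPC gate against 5.34% and 5.14% of astroglia. Without marked barcodes the log2 differences were 4.34 for Gja1 and 4.45 for Aqp4. In gates where the other markers all stayed under 2 UMIs they were 5.69 and 5.25, and Kcnj16 then differed in the opposite direction, at 0.34 (adjusted p = 0.021). Over all 10 alternative settings the Kcnj16 value ranged from -0.10 to 0.34 and its adjusted p from 0.021 to 0.948.

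All 4 tested members were higher in astroglia than in either neuronal gate. Against glutamatergic neurons the log2 differences were 4.99 ± 0.09 for Aqp4, 4.87 ± 0.12 for Gja1, 4.15 ± 0.14 for Kcnj10 and 3.51 ± 0.27 for Kcnj16 (highest adjusted p = 6.27e-14), where 72.4% of all genes passed. Against GABAergic neurons they were 4.31 ± 0.08, 4.50 ± 0.11, 3.86 ± 0.13 and 3.37 ± 0.25 in the same order (highest adjusted p = 5.50e-14), where 71.0% passed. Against microglia, where 64.2% passed, they were 3.32 ± 0.10, 3.61 ± 0.16, 2.52 ± 0.18 and 3.12 ± 0.42 (highest adjusted p = 5.30e-08). Every one of these 12 calls was kept in all 10 alternative settings. The sizes moved most against microglia, a gate in which Scrublet marked 17.7% and 11.5% of barcodes: without marked barcodes the differences were 5.44 for Aqp4, 5.31 for Gja1, 3.18 for Kcnj10 and 4.14 for Kcnj16. Against glutamatergic neurons the Kcnj16 difference was 2.40 with cells thinned to 2000 UMIs.

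Slc1a3-rich and Slc1a3-poor OPCs differed in all 4 tested members. A split by UMIs also depends on depth, and median UMIs were 9766 and 10317 in the former against 7188 and 8117.5 in the latter. OPCs with at least 2 Slc1a3 UMIs (2508 and 2916 cells) had 15.3 and 18.7 CPM of Gja1, and those with fewer (1583 and 1378 cells) had 2.31 and 2.81 CPM. For Aqp4 the levels were 49.7 and 47.4 CPM against 10.6 and 10.4 CPM. The lower values were under those of glutamatergic and GABAergic neurons, and no library overlapped between the 2 kinds of OPC. Kcnj10 went only from 42.5 and 48.3 CPM to 30.1 and 33.4 CPM, and Kcnj16 from 15.0 and 15.5 CPM to 12.5 and 9.65 CPM. Kcnj10 in Slc1a3-poor OPCs was thus still above every neuronal and microglial library.

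In a fit with Mki67 detection as a second term, Gja1 differed between the 2 kinds of OPC by 2.66 ± 0.18 on the log2 scale (adjusted p = 3.00e-13) and Aqp4 by 2.18 ± 0.09 (adjusted p = 3.18e-19). Kcnj10 differed by 0.44 ± 0.06 (adjusted p = 3.94e-06) and Kcnj16 by 0.42 ± 0.11 (adjusted p = 0.00658). Here 17.6% of 13950 genes passed, 2454 with the library block and 973 without it, and all 4 members did. The Kcnj10 call was lost with thinned cells, and over 9 alternatives its value ranged from 0.26 to 0.46 and its adjusted p from 2.47e-09 to 0.600. The Kcnj16 call was lost with thinned cells and with DESeq2, over a range of 0.40 to 0.70 and adjusted p from 0.000187 to 0.151.

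The astroglial markers moved with this split. Their summed level was 1897 and 1968 CPM in Slc1a3-rich OPCs against 848 and 885 CPM in the rest, none of the 10 was at 0, and Slc1a3 itself is one of them. Scrublet marked 14.8% and 11.9% of Slc1a3-rich OPCs and 3.03% and 2.47% of the others. Without marked barcodes the differences were 1.67 for Gja1 and 1.03 for Aqp4, both still called, and 0.29 for Kcnj10 and 0.46 for Kcnj16. The part of OPC-astroglia doublets that Scrublet did not mark was not tested.

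Shares of cells with a UMI gave the same division at matched depth. With 2000 UMIs drawn at random from each cell (409 and 307 astroglia were too shallow), Aqp4 was seen in 42.6% and 41.5% of astroglia, Gja1 in 21.2% and 21.7%, Kcnj10 in 14.5% and 17.1% and Kcnj16 in 2.65% and 3.02%. Before thinning the mean shares over both libraries were 66.1%, 49.8%, 44.7% and 10.1%. Neurons, where free RNA in the droplets would also be counted, had thinned shares of 3.43% and 2.70% for Aqp4, 0.687% and 1.14% for Gja1, 0.973% and 1.25% for Kcnj10 and 0.515% and 0.363% for Kcnj16. Their median depth before thinning was 5756 and 6715 UMIs, against 8592 and 9397 in astroglia. Slc1a3-poor OPCs had Aqp4 in 3.05% and 2.52% of cells and Gja1 in 0.354% and 1.14%, shares that did not exceed those of neurons. The same OPCs had Kcnj10 in 6.02% and 6.59% of cells and Kcnj16 in 3.26% and 2.03%, above the neuronal shares in both libraries.

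The ratio of Aqp4 to Gja1 UMIs varied within a few-fold between gates. Astroglia had 3.14 and 2.85 Aqp4 UMIs per Gja1 UMI, OPCs 3.32 and 2.58, glutamatergic neurons 3.67 and 2.29, GABAergic neurons 3.50 and 3.33 and microglia 3.65 and 3.60. Slc1a3-poor OPCs had 4.60 and 3.70, Gfap-detected astroglia 3.91 and 3.50 and Mki67-detected astroglia 2.35 and 1.96. Barcodes of the OPC gate with at least 2 UMIs of Col1a2, a fibroblast collagen, stood apart in replicate 2, at 2.40 and 0.242. Kcnj10 stood at 0.205 and 0.243 UMIs per Aqp4 UMI in astroglia, 1.00 and 1.16 in OPCs and 2.83 and 3.22 in Slc1a3-poor OPCs. The same ratio was 0.200 and 0.563 in glutamatergic neurons, 0.357 and 0.277 in GABAergic neurons and 0.233 and 0.611 in microglia. The part of free RNA in the UMIs of any gate was not tested. OPCs did not share the astroglial ratio of Kcnj10 to Aqp4, nor that of Kcnj16 to Aqp4, which was 0.0359 and 0.0332 in astroglia and 0.367 and 0.365 in OPCs.

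Within astroglia the members were compared by whether a cell had a UMI of Gfap, the intermediate filament of astrocytes, of Egfr, a growth factor receptor of glial progenitors, or of Mki67, which marks cycling cells. The 8 combinations gave 16 sums from 54 to 993 cells each, and 1 fit estimated the change with each gene while the other 2 were held fixed. Detection depends on depth, and the groups were not equally deep. Median UMIs were 8366.5 and 9083 with Gfap against 8833 and 9608.5 without, 11005 and 11711 with Egfr against 6298 and 6994, and 13570 and 14483.5 with Mki67 against 7467 and 8304.

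Gfap-detected astroglia carried more Aqp4 and, less so, more Gja1. Aqp4 stood at 599 and 617 CPM in the 952 and 1007 Gfap-detected cells and at 249 and 258 CPM in the 2324 and 2046 others. Gja1 stood at 153 and 176 CPM against 94.6 and 109 CPM, and no library overlapped. Kcnj10 had 85.3 and 104 CPM against 66.3 and 84.4 CPM, higher with Gfap within each library, but with hardly any distance between the groups across libraries. Kcnj16 had 12 and 12.8 CPM against 12.8 and 12.1 CPM, and the groups overlapped.

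Held at equal Egfr and Mki67 detection, Aqp4 was 2.07-fold higher with Gfap (log2 1.05 ± 0.08, adjusted p = 5.65e-11) and Gja1 1.40-fold higher (0.49 ± 0.07, adjusted p = 5.25e-06). Kcnj10 was 1.18-fold higher (0.24 ± 0.05, adjusted p = 0.000586), and Kcnj16 differed by -0.14 with a 95% interval from -0.43 to 0.15 (adjusted p = 0.493). This Kcnj16 value averages over Egfr and Mki67 combinations that did not share a direction. Without Egfr and Mki67, Kcnj16 stood at 11.05 and 11.13 CPM with Gfap against 18.6 and 15.9 CPM. With both it stood at 10.55 and 12.4 CPM against 7.22 and 6.39 CPM, and the dependence was not tested. Of 12728 genes, 30.8% passed. The Aqp4 call was kept in all 11 alternatives, at 0.82 to 1.23. Gja1 ranged from 0.24 to 0.66 (adjusted p from 1.77e-54 to 0.0928) and Kcnj10 from 0.02 to 0.29 (adjusted p from 1.69e-08 to 0.947), and both calls were lost where gates and splits were made on cells thinned to 2000 UMIs. The astroglial marker list was higher as well, at 7933 and 8692 CPM with Gfap against 5123 and 5799 CPM without, with none of the 10 at 0. OPC markers moved with the split: their 8 genes, none at 0, summed to 751 and 741 CPM with Gfap and 1426 and 1326 CPM without. The 6 GABAergic markers, none at 0, summed to 73.2 and 66.8 CPM against 136 and 145 CPM. The part of these lists in the differences was not tested.

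As a share of their UMIs, Mki67-detected astroglia had less of all 4 members. Aqp4 stood at 155 and 180 CPM in the 755 and 708 Mki67-detected cells against 463 and 479 CPM in the rest, and Gja1 at 65.8 and 91.6 CPM against 138 and 152 CPM. Kcnj10 stood at 55.2 and 66.2 CPM against 81.4 and 104 CPM. Kcnj16 stood at 8.07 and 7.62 CPM against 15.2 and 14.9 CPM. No library of the Mki67-detected group overlapped the other group in CPM of any of the 4 genes. The Mki67-detected cells were deeper, so a lower CPM need not mean fewer UMIs per cell. Aqp4 had 1649 and 1909 UMIs in these 755 and 708 cells and 8552 and 9192 in the other 2521 and 2345, fewer per cell. Kcnj10 had 588 and 704 UMIs against 1503 and 1998, not fewer per cell.

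The fitted changes with Mki67 were -1.09 ± 0.08 for Aqp4 (adjusted p = 2.66e-12), -0.84 ± 0.15 for Kcnj16 (1.95e-05), -0.71 ± 0.08 for Gja1 (5.04e-09) and -0.51 ± 0.05 for Kcnj10 (2.20e-09), where 50.8% of all genes passed. Aqp4 kept its call in all 11 alternatives, at -1.39 to -0.81. With cells thinned to 2000 UMIs the other 3 calls were lost, at -0.26 for Gja1, -0.21 for Kcnj10 and -0.37 for Kcnj16. Detection was redone on the thinned counts there. Combinations with both Gfap and Mki67 then had 2 to 15 cells per library, under the minimum of 20, and were left out of that fit. Their adjusted p ranged up to 0.195, 0.445 and 0.638 over the alternatives and down to 9.16e-26, 1.68e-15 and 3.56e-08. The astroglial marker list was lower as well, at 3556 and 4332 CPM with Mki67 against 7310 and 8042 CPM without, with none of the 10 at 0. The GABAergic list was higher, at 214 and 224 CPM against 62.4 and 61.9 CPM, with none of the 6 at 0, and its part was not tested.

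Egfr detection went with small and opposite changes. Aqp4 stood at 260 and 326 CPM in the 1482 and 1517 Egfr-detected cells and at 484 and 451 CPM in the rest, without overlap. Kcnj10 stood at 73.0 and 91.2 CPM against 70.1 and 89.3 CPM, slightly higher with Egfr within each library and by less than the spread between libraries. With Gfap and Mki67 held fixed, Aqp4 changed by -0.39 ± 0.08 (adjusted p = 0.000664) and Kcnj10 by 0.24 ± 0.05 (adjusted p = 0.00108), where 21.0% of all genes passed. Gja1 changed by -0.05, with a 95% interval from -0.20 to 0.10 (adjusted p = 0.720), and Kcnj16 by 0.06, from -0.22 to 0.34 (adjusted p = 0.818). The fit gave the same Egfr change to cells with and without Gfap, but for Gja1 the directions were opposite. Among cells without Gfap and Mki67, Gja1 stood at 107 and 117 CPM with Egfr against 135 and 145 CPM without. Among cells with Gfap and without Mki67 it stood at 187 and 213 CPM against 161 and 173 CPM. Whether the Egfr change depended on Gfap was not tested. The Aqp4 and Kcnj10 calls did not hold with thinned cells, where Aqp4 changed by -0.02 and Kcnj10 by 0.11. The Kcnj10 call was also lost when the Egfr split was fitted alone, at 0.11, and Gja1 was then called, at -0.27. Over the 11 alternatives adjusted p ranged from 6.75e-46 to 0.963 for Aqp4, from 0.00123 to 0.863 for Kcnj10 and from 1.45e-07 to 0.983 for Gja1. Egfr-detected cells had the higher median depth. Their OPC markers stood at 1410 and 1258 CPM against 963 and 935 CPM, with none of the 8 at 0. Their astroglial list stood at 5168 and 6194 CPM against 7079 and 7635 CPM, with none of the 10 at 0. None of these was tested as a part of the changes with Egfr.

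**Figure D2:**
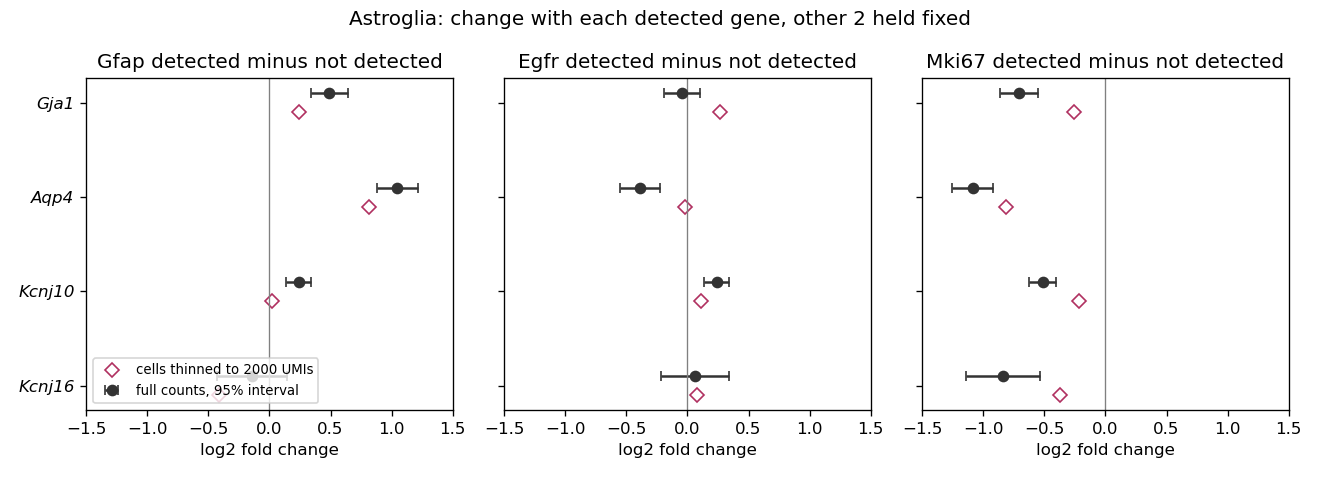
Change of 4 members with detection of Gfap, Egfr or Mki67 in astroglia, as log2 fold change with the other 2 genes held fixed. Black circles are the fit to full counts with 95% intervals, and open diamonds the fit to cells thinned to 2000 UMIs. The thinned fit holds no combination with both Gfap and Mki67. Aqp4 is higher with Gfap (1.05) and lower with Mki67 (-1.09) in both fits, whereas the Egfr changes of Aqp4 (-0.39) and Kcnj10 (0.24) shrink after thinning.

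The 8 combinations showed how far each gene ranged among astroglia. Aqp4 was highest in cells with Gfap and Egfr, at 619 and 753 CPM, and in cells with Gfap alone, at 732 and 621 CPM, and these 2 combinations overlapped. It was lowest in cells with Egfr and Mki67, at 103 and 113 CPM. Gja1 was highest with Gfap and Egfr, at 187 and 213 CPM, and lowest with Egfr and Mki67, at 57.6 and 79.8 CPM. Kcnj10 had its highest level in the same combination as Gja1, at 102 and 116 CPM, and its lowest with Mki67 alone, at 45.5 and 63.0 CPM, and with Egfr and Mki67, at 53.7 and 62.3 CPM, which changed places between the libraries. Kcnj16 was highest in cells with none of the 3, at 18.6 and 15.9 CPM, and in cells with Egfr alone, at 15.0 and 16.3 CPM, which also changed places, and lowest with Egfr and Mki67, at 7.22 and 6.39 CPM. Mean levels of Aqp4 thus ran from 108 to 686 CPM and those of Kcnj10 from 54.3 to 109 CPM.

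**Figure D3:**
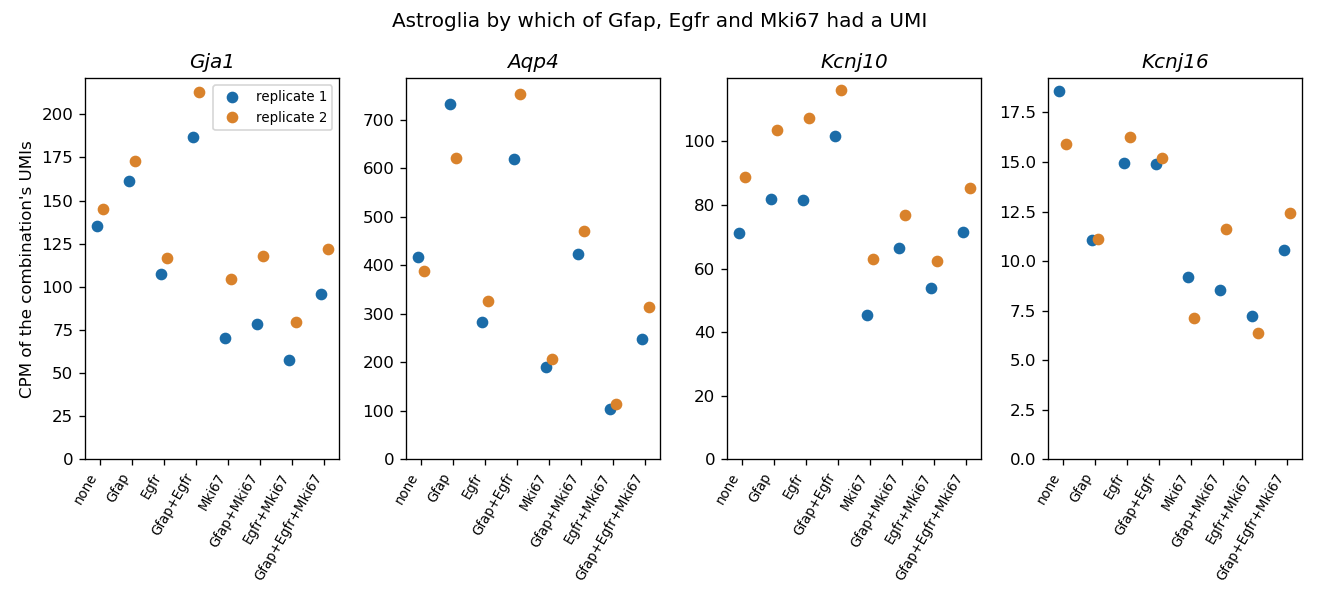
Level in CPM (linear axes from 0) of Gja1, Aqp4, Kcnj10 and Kcnj16 in astroglia sorted by which of Gfap, Egfr and Mki67 had a UMI, 1 point per library. Aqp4 spans 103 to 753 CPM over the combinations, and Kcnj10 45.5 to 116 CPM.

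Per cell, the members overlapped to different degrees. At 2000 UMIs per cell 20.8% and 20.7% of astroglia had UMIs of 2 or more members, against 1.19% and 2.03% of OPCs and 0.0572% and 0.156% of neurons. Gja1 was seen in 30.4% and 30.5% of astroglia with an Aqp4 UMI and in 14.4% and 15.5% of those without, and the exact 95% intervals of the 2 shares did not meet in either library. The gap was present among Gfap-detected astroglia (29.8% and 29.2% against 19.2% and 18.8%) and among the others (30.8% and 31.7% against 13.0% and 14.3%). Kcnj10 was seen in 18.3% and 21.6% of astroglia with Aqp4 and in 11.7% and 14.0% without. By Gja1 the Kcnj10 shares were 18.6% and 24.8% against 13.5% and 15.0%. Among Gfap-detected astroglia Kcnj10 did not separate by Aqp4, with 15.0% and 20.5% against 14.8% and 16.5%, and the intervals overlapped. Unthinned, 53.8% and 59.2% of astroglia had 2 or more members.

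The 2 potassium channel subunits, whose proteins pair in 1 channel, were not detectably seen together more often at this depth. Kcnj16 had a UMI in 3.60% and 2.98% of astroglia with Kcnj10 and in 2.49% and 3.03% of those without. In OPCs the shares were 2.99% and 3.30% against 3.26% and 3.06%. The intervals overlapped in all 4 comparisons, and with 8 to 15 cells holding both in a library and gate only large differences could have been seen.

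**Figure D4:**
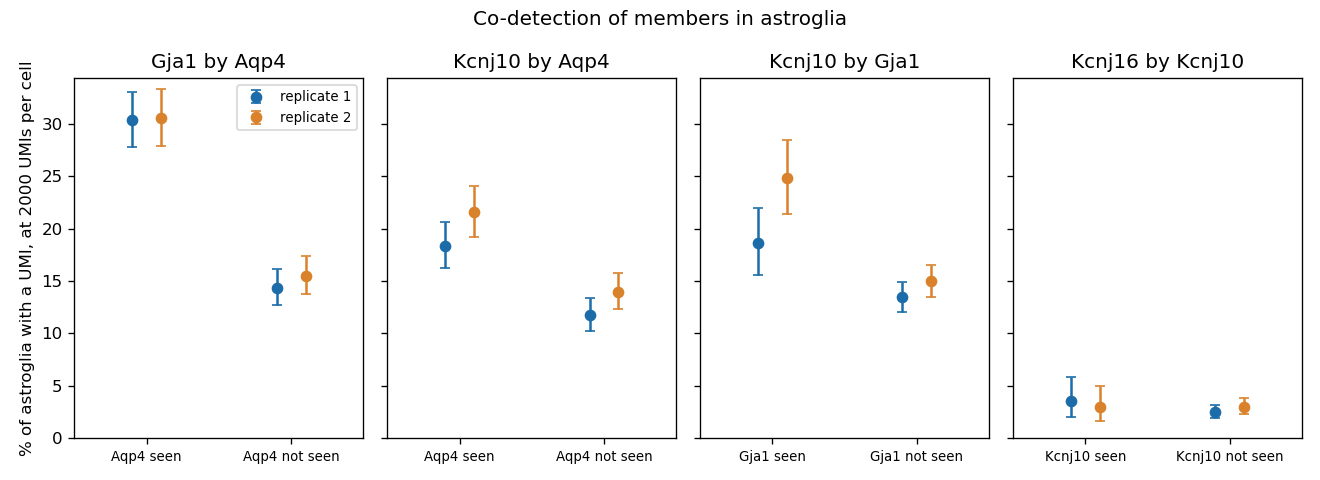
Percent of astroglia with a UMI of the first-named gene, among cells with and without a UMI of the second, after thinning to 2000 UMIs. Points are libraries with exact 95% binomial intervals. Gja1 is near 30% with Aqp4 and near 15% without, and Kcnj16 is near 3% whether or not Kcnj10 was seen.

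Gjb6 and Gjb2, the other connexins of astrocytes and meninges, were almost unseen. In astroglia Gjb6 had 38 and 32 UMIs (1.31 and 1.07 CPM) and Gjb2 19 and 29 UMIs (0.653 and 0.972 CPM). A UMI of Gjb6 was found in 33 of 3276 and 32 of 3053 astroglia, and of Gjb2 in 18 and 28. No neuron gated as glutamatergic or GABAergic held either, where 3 counts would have been 0.442 to 0.613 CPM. Gja1 was also seen in 37 of the 41 and 40 of the 51 cells of any gate with Gjb6. Without a filter on low counts the changes of both genes with Gfap, Egfr and Mki67 detection did not pass (lowest adjusted p = 0.0548), and the difference between astroglia and OPCs did, at 2.07 for Gjb6 (adjusted p = 7.69e-07) and 1.56 for Gjb2 (adjusted p = 0.00182).

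The OPC counts of these 2 genes came largely from a few barcodes of replicate 2. The OPC gate held 2 Gjb6 UMIs in replicate 1 and 26 in replicate 2, and 6 and 21 of Gjb2. In replicate 2, 15 of 4294 barcodes in that gate also had at least 2 UMIs of Col1a2, and they carried 18 of the 26 Gjb6 UMIs and 19 of the 21 Gjb2 UMIs. Their Gja1 level was 495 CPM, their Gjb6 level 93.7 CPM and their Gjb2 level 98.9 CPM, each from 1 library. The 7 such barcodes of replicate 1 had 77.5 CPM of Gja1, no Gjb6 and 2 Gjb2 UMIs. Fibroblast and mural markers, 6 genes with none at 0, summed to 1867 and 4227 CPM there, against 4.45 and 3.95 CPM in the rest of the OPC gate. Col1a2, which selected these barcodes, is 1 of the 6, so part of this contrast was fixed by the selection. Pdgfra is also carried by fibroblasts, so the gate does not by itself separate them from OPCs. In the same barcodes the astroglial list stood at 4369 and 4206 CPM, with 1 of 10 genes at 0, against 1602 and 1708 CPM in the rest. The OPC list stood at 3905 and 2728 CPM against 5944 and 5983 CPM. Scrublet marked 42.9% and 6.67% of them, and whether they were single cells was not tested. These barcodes were singled out after their values were seen. A further gate of 23 and 35 barcodes had at least 2 Col1a2 UMIs and under 2 UMIs each of Pdgfra, Stmn2 and C1qa. It carried the astroglial list at 7143 and 8689 CPM and so is called by its gene only. That gate had 451 and 555 CPM of Aqp4 and 155 and 177 CPM of Gja1, above the astroglia gate in both libraries.

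Related genes were read from lists of connexins and pannexins, aquaporins, inward rectifier and two-pore potassium channels, endfoot anchoring proteins, and transporters and pumps, leaving out the 6 members. Of all genes tested, 34.6% were higher and 35.3% lower in astroglia than in OPCs, 37.5% and 34.8% against glutamatergic neurons, 36.8% and 34.2% against GABAergic neurons and 32.4% and 31.8% against microglia. Of 20 genes in the first list 6 were tested, and between astroglia and OPCs 1 was higher and 4 lower in astroglia, with a median log2 difference of -1.89 against -0.01 over all genes. The 5 calls among 6 are near the 69.9% of all genes called there, so the count is no result about connexins. Gjb1, an oligodendrocyte connexin, stood at 1.43 CPM ± 0.02 in astroglia and 28.2 CPM ± 1.42 in OPCs (SD, n = 2), a log2 difference of -4.19 ± 0.12. Gjc3, a connexin-related gene of myelinating glia, differed by -3.36 ± 0.13, and Gjd2, the neuronal gap junction gene, by -2.74 ± 0.28. Gjc1 was higher in astroglia, by 1.30 ± 0.06. Gjd2 was higher still in glutamatergic neurons, at 8.51 CPM ± 1.35 against 0.408 CPM ± 0.151 in astroglia. Of the 6 tested, 3 were higher and 3 lower in astroglia than in glutamatergic neurons, 2 and 2 against GABAergic neurons and 2 and 0 against microglia.

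Genes of the endfoot complex and of astrocyte transport were mostly higher in astroglia. All 17 endfoot genes were tested: 12 were higher in astroglia than in OPCs, 3 lower and 2 not called (median 0.36), where 34.6% of all genes were higher and 35.3% lower. Mlc1, a membrane protein of astrocyte junctions, differed by 3.28 ± 0.04, and Sntb2, a syntrophin, by -1.85 ± 0.20. Of 15 transporters and pumps 12 were higher, 2 lower and 1 not called (median 1.61), among them the bicarbonate cotransporter Slc4a4 (3.03 ± 0.03), the sodium pump regulator Fxyd1 (3.37 ± 0.10) and the cystine transporter Slc7a11 (2.96 ± 0.09). Trpv4, a calcium-permeable channel, was lower in astroglia (-3.05 ± 0.37). Against glutamatergic and GABAergic neurons 15 and 14 of the 17 endfoot genes and 14 and 14 of the 15 transporters were higher, with 1 and 0 endfoot genes and no transporter lower, where 37.5% and 36.8% of all genes were higher. Against microglia 14 endfoot genes were higher and 2 lower, and 12 transporters higher and 2 lower, where 32.4% of all genes were higher.

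The potassium channels shared no direction between glial gates. Of 27 non-members 11 were tested, of which 2 were higher in astroglia than in OPCs and 3 lower (median -0.01), both under the 34.6% and 35.3% of all genes. Kcnj6, a G protein-gated channel, was higher by 1.81 ± 0.09, and Kcnj3, which pairs with it in neurons, lower by 2.32 ± 0.34 on the log2 scale. The two-pore channels Kcnk12 and Kcnk3 were lower, at -2.23 ± 0.18 and -0.89 ± 0.15. Against glutamatergic neurons 2 of the 11 were higher and 5 lower (37.5% and 34.8% of all genes), against GABAergic neurons 4 and 1 (36.8% and 34.2%), and against microglia 5 and 4 (32.4% and 31.8%). Among 11 other aquaporins 3 were tested and 1 was higher, the glycerol-passing Aqp9, at 4.36 CPM ± 0.04 against 0.556 CPM ± 0.175 (3.09 ± 0.24).

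With Gfap, 12 of 16 tested endfoot genes were higher and none lower, where 14.3% of all genes were higher and 16.5% lower. Dtna, a dystrobrevin of that complex, was higher by 0.65 ± 0.06. Of 14 transporters 7 were higher and none lower, led by Fxyd1 (1.16 ± 0.09) and the glutamate transporter Slc1a2 (0.59 ± 0.05). Aqp11 (1.00 ± 0.18) and Aqp9 (0.58 ± 0.21) were also higher, as were the channels Kcnj6 (1.06 ± 0.14), Kcnk3 (2.15 ± 0.33) and Kcnk2 (0.45 ± 0.06), and Kcnk1 was lower (-0.31 ± 0.08).

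With Mki67, 11 of 16 endfoot genes and 11 of 14 transporters were lower, 0 and 1 higher, where 25.5% of all genes were higher and 25.3% lower. The amino acid transporter Slc7a10 changed by -1.55 ± 0.11, Fxyd1 by -1.28 ± 0.11, Dtna by -0.82 ± 0.06 and Mlc1 by -0.73 ± 0.05. Of 6 other potassium channels 4 were lower and none higher, including Kcnj6 (-0.95 ± 0.16) and Kcnk2 (-0.82 ± 0.06). Gjc1 was higher (0.77 ± 0.08), at 74.2 CPM ± 0.41 against 43.8 CPM ± 0.22. With Egfr, 1 of 16 endfoot genes was higher and 6 lower, and 1 of 14 transporters higher and 3 lower, where 10.9% of all genes were higher and 10.1% lower. In Slc1a3-rich OPCs 8 of 16 endfoot genes and 11 of 15 transporters were higher and none lower, where 8.83% of all genes were higher and 8.76% lower. Slc7a11 (2.06 ± 0.21), Slc4a4 (1.89 ± 0.08) and Mlc1 (1.84 ± 0.10) led these.

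Across 30 sums of libraries and subclasses of cells, the genes most like each member were found by Pearson's r of log2(CPM + 1), among 9889 genes reaching 20 CPM in some sum. The sums share libraries and depth, so r is a description. Nearest to Gja1 were Mlc1 (0.990), Ston2 (0.985) and Aldh1l1 (0.985), and nearest to Aqp4 were Sparcl1 (0.991), Lcat (0.988) and Daam2 (0.987). Among the nearest to Kcnj10 were Plce1 and Hepacam, each at 0.976. Kcnj16, which itself stayed under 20 CPM, was nearest to Vit, Car8 and Tril, each at 0.970. Among members, Gja1 and Aqp4 had r = 0.985, Kcnj10 and Kcnj16 0.877, and Gja1 and Kcnj16 0.506. Gjb6 and Gjb2 reached no r above 0.809, on counts too sparse to read.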

How the data were processed

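The deposited files hold raw UMI counts per gene and barcode in the matrices of called cells, made by the authors with Cell Ranger 6.0.2 per the submitters' processing notes, which also list the mm10 build, Seurat 4.1.0 and R 4.1.0 without saying what they were used for. Per the labels' protocols, cells were captured with 10x Genomics 3' chemistry v3.1. The annotation release and any removal of doublets are not given in the sources used here.

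From these counts, barcodes with fewer than 500 genes (441 and 657) or over 10% mitochondrial UMIs (2189 and 2891) were removed. Cells were gated by marker UMIs: OPCs had at least 2 Pdgfra UMIs, more than Stmn2 and C1qa, whatever their Slc1a3. Astroglia had at least 2 Slc1a3 UMIs, more than Stmn2 and C1qa, and under 2 Pdgfra UMIs. Neurons and microglia were gated likewise by Stmn2 and C1qa, and neurons were split by Neurod2 and Neurod6 against Gad1 and Gad2. Barcodes with at least 2 Col1a2 UMIs and under 2 each of Pdgfra, Stmn2 and C1qa formed a separate gate. They were taken out of the other gates, astroglia included. Doublets were kept, and an alternative left out those marked by Scrublet in scanpy 1.11.5 (7.68% and 7.10%, at an expected 10%). Counts were summed per library and gate and tested with edgeR 4.0.16 in R 4.3.3 (quasi-likelihood test, TMM, filterByExpr, Benjamini-Hochberg adjustment at 0.05 over all genes but those used for gating). The fits had 10, 16 and 8 sums with 4, 11 and 4 residual degrees of freedom. In the fits with 16 and 8 sums the residual also holds departures from additive effects of the splits. The SE is the log2 change divided by the square root of F. The scripts were tested on simulated counts. The library entered as a block because the sums within it were made from 1 sort. Deviations of sums of 1 library were correlated weakly or not at all, with a median r of 0.0809, 0.0760 and 0.116 by fit and a lowest of 0.00140, -0.00514 and 0.0678. Levels are CPM per library or mean ± SD (n = 2). Intervals are exact (Poisson for CPM, Clopper-Pearson for shares), at 95%, and like the limits from 3 counts cover counting error only. Alternatives were DESeq2 1.42.0, RLE scaling, no filter, no block, each library alone, exclusive gates, a minimum of 4 Slc1a3 UMIs, thinning to 2000 UMIs and stricter barcode filters. Leaving out barcodes with Col1a2 and fitting each split alone were added after the data had been seen. Named genes are the 6 members, up to 4 called genes of each list with the largest changes, and the 3 genes most like each member. The members and lists were chosen with earlier results of these data known. Promoter windows are RefSeq's on GRCm38.p6, and gene positions are from the annotation of GRCm38. Python 3.11.15, numpy 2.4.6, scipy 1.17.1, pandas 2.3.3 and matplotlib 3.10.9 were used. Some genes that the naming rule selected are not reported here.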

Additional observations from a re-analysis of the deposited data

How the results depend on the processing

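With gates, splits and sums made on cells thinned to 2000 UMIs, fewer genes passed: 5827 between astroglia and OPCs (10095 on full counts), 5565 against glutamatergic neurons (10447), 5662 against GABAergic neurons (10254), 4799 against microglia (9269), 1250 with Gfap (3926), 116 with Egfr (2676), 1485 with Mki67 (6471) and 357 between OPCs with and without 2 Slc1a3 UMIs (2454). Of the 116 called with Egfr 29.3% were higher, against 51.9% of those called on full counts. Fitted alone, the Gfap split called 6340 genes and the Egfr split 5896. For OPCs by Slc1a3, DESeq2 called 1176 genes, and the fit without the library block 973, of which 65.7% were higher (50.2% with the block). The block changed no other count by over 1.5 times and no call of a member. Kcnj16 between astroglia and OPCs was 0.34 in exclusive gates, which cannot be formed for OPCs by Slc1a3, so that alternative was not run there. The share of astroglia with 2 or more members was 56.5% unthinned, 2.87% at 2 UMIs per gene, 21.3% without Scrublet-marked barcodes and 21.5% in exclusive gates (20.8% as reported). The other 72 counts of called genes and shares stayed within 1.5 times or 1 SD of the reported value. Each library alone gives a value without a test. In these the difference between astroglia and OPCs was 3.36 and 3.22 for Gja1, 3.28 and 3.37 for Aqp4, 0.99 and 1.12 for Kcnj10, and -0.07 and -0.09 for Kcnj16. Thinned cells carry fewer UMIs, so Gjb6, Gjb2 and Kcnj16 are limited by depth there. The cause of the other changes was not tested.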

Other observations

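The barcodes removed for few genes or many mitochondrial UMIs (2630 and 3548) had higher levels of 4 members. Aqp4 stood at 311 and 310 CPM among them against 134 and 133 CPM in kept barcodes of all gates, and Gja1 at 110 and 106 CPM against 42.2 and 47.5 CPM. Kcnj16 stood at 16.8 and 20.1 CPM against 10.9 and 10.5 CPM. Kcnj10 was closer, at 53.7 and 55.4 CPM against 42.2 and 50.2 CPM. Gjb6 had 3 and 5 UMIs there and Gjb2 2 and 3, at 0.622 and 0.762 CPM against 0.509 and 0.625 CPM and 0.415 and 0.457 CPM against 0.304 and 0.508 CPM, too few to compare. Which cells these barcodes came from was not tested.

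Barcodes that passed the filters but no gate (1619 and 1314, with median depths of 2060 and 2350.5 UMIs) had Aqp4 at 23.0 and 25.6 CPM and Kcnj10 at 20.1 and 24.0 CPM. The most Aqp4 UMIs counted in 1 astroglial cell were 38 in replicate 1 and 47 in replicate 2. The highest counts per astroglial cell were 6 and 10 for Kcnj10 and 4 and 3 for Kcnj16. Each maximum was taken for its gene alone, so these need not be the same cells. At least 4 Aqp4 UMIs were counted in 969 and 1021 astroglia, and none in 1155 and 994.

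Outside the 6 members, the two-pore potassium channel Kcnk13 was higher in microglia than in astroglia. It stood at 29.7 CPM ± 1.97 (SD, n = 2) in microglia and 0.423 CPM ± 0.0646 in astroglia, a log2 difference of -6.57 ± 0.29 (edgeR, astroglia minus microglia). In OPCs 2417 UMIs of Gjb1 and 1163 of Gja1 were counted. As capture differs between genes, these counts do not order the levels of the 2 genes.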
